A study of Canis lupus familiaris with 4 samples.

Results

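Gene expression was compared between HIF2α-KD and control MDCK cells that were both kept in hypoxia, which takes 2 of the series' 4 microarrays. MDCK cells are an epithelial line from dog kidney, here of strain II, that forms polarised sheets and cysts, and HIF2α-KD cells carry a retroviral short hairpin RNA against the canine HIF2α mRNA, encoded by *EPAS1*. All 4 cultures spent 24 h in normoxia and then a further 24 h, in 1% O2 for the hypoxic pair and in 16% O2 for the normoxic pair. Control cells are labelled wild type for HIF2α. In the study, control cells were infected with a retrovirus that carries an empty hairpin cassette, and cells infected with the hairpins were selected with puromycin. The study names line HIF2α-KD#1 for its normoxic arrays, and the array labels name no line. The knockdown is thus taken to stand for 1 hairpin line, and its effect cannot be told apart from other differences between the lines. Each condition has 1 array, so there is no replicate spread, no test and no error on any difference below.

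Of the 15115 genes with a probe set of their own, 9749 passed a filter on dim values and make up the comparison. Values are intensities in arbitrary units, and a difference is log2(intensity + 16) on the HIF2α-KD array minus the same on the control array, so that -1 is 2-fold lower in HIF2α-KD cells. Pairs of intensities are given with the control array before the HIF2α-KD array, and a signed number in parentheses after a pair, or after a gene name alone, is the log2 difference, in hypoxia unless normoxia is named. The study used the arrays to look for signalling that depends on HIF2α. The hypoxic arrays add the setting in which HIF2α protein is stabilised.

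HIF2α is an oxygen-regulated transcription factor that pairs with ARNT and binds hypoxia response elements, as its relative HIF1α does. In well-oxygenated cells, prolyl hydroxylases encoded by *EGLN1* to *EGLN3* mark both HIFα proteins, and the VHL ubiquitin ligase then has them degraded. In hypoxia this slows and the factors accumulate. HIF1α is best known for driving glycolytic enzymes, while HIF2α is linked to erythropoietin, iron handling and growth factor genes, with many targets shared.

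*EPAS1* was lower in HIF2α-KD cells in hypoxia. It read 116 and 32.6, a log2 difference of -1.45, and was the gene with the 11th most negative difference. In normoxia it read 44.6 and 47.9 (0.077), so the hypoxic control array alone stood high while in normoxia the knockdown-labelled array was not below its control. These are dim values: the 95th percentile of 63 reporter probe sets, which have no dog target, was 20.6 to 27.2 on the 4 arrays. A further *EPAS1* probe set lay below the filter, at 1 to 6 on every array, and gives no second reading. *HIF1A* read 2651 and 2473 (-0.10) and *ARNT* 78.9 and 75.6 (-0.051), both close to the median of all genes, -0.037. The sign for *HIF1A* turned where its probe sets were averaged (0.073).

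The hypoxic arrays were alike over most genes. Pearson's r of their log2 levels was 0.99 across the 9749 genes, which are not independent replicates, and 89.7% of genes differed by less than 0.5. Differences of 2-fold or more were mostly toward lower values in HIF2α-KD cells. They counted 86 genes lower, 0.882% of the 9749, and 10 genes higher, 0.103%. The lower genes had a median intensity of 325 on the control and 112 on the HIF2α-KD array, and the higher genes 38.3 and 138, so that the higher group was mostly dim. Of the 86, 72 were above the reporters' 95th percentile on both hypoxic arrays, and of the 10, 6 were. The filter kept 7 of the 86 through the hypoxic control array alone and 1 of the 10 through the HIF2α-KD array alone, so these entered through the array on which they were high. At 1.5-fold the counts were 481 lower, 4.93%, and 158 higher, 1.62%. The closest genes short of 2-fold were *WNT5B* (-0.997), *HELZ* (-0.99) and *PRR15* (0.998), and the closest inside were *DLA-DQA1* (-1.002) and *ARPP21* (1.02). Among all genes 55.7% lay below 0, the share against which the gene groups are read. It was 45.4% under quantile normalization, which moves the median of all genes to 0.029. With a pseudocount of 1 in place of 16 the counts became 153 lower and 74 higher, 67.4% of them lower against 89.6%.

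**Figure D1:**
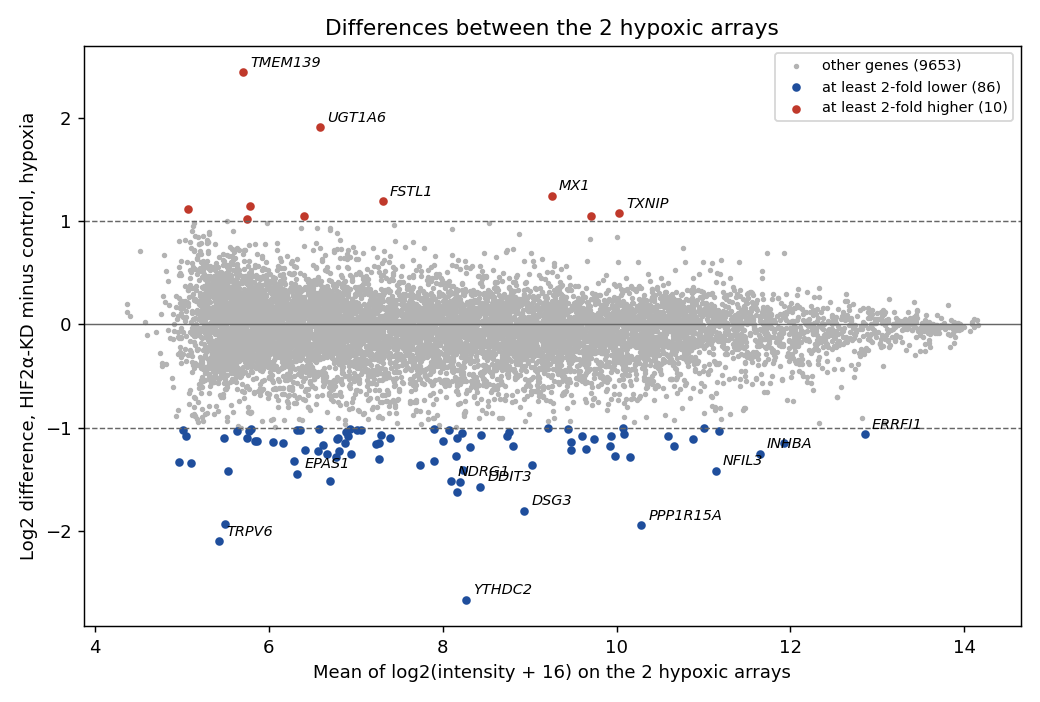
Log2 difference between the hypoxic HIF2α-KD and control arrays (y axis) against the mean of log2(intensity + 16) on both (x axis), 1 point per gene, with 86 genes at least 2-fold lower in blue and 10 at least 2-fold higher in red. Lower genes appear along the whole brightness range, while the brightest higher genes are *TXNIP*, *IFI44L* and *MX1*.

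Among HIF target genes, those of intracellular proteins outside glycolysis lay furthest below 0. Of 25 such targets, 21 lay below 0 with a median of -0.42, 3 were at least 2-fold lower and 8 at least 1.5-fold lower. *NDRG1*, a gene strongly induced by hypoxia and nickel, read 445 and 145 in hypoxia (-1.52) and 14.4 and 18.4 in normoxia (0.18). Both hypoxic arrays were far above both normoxic ones, with the HIF2α-KD array between. *NFIL3*, a leucine zipper repressor, read 3669 and 1365 in hypoxia (-1.42) and 1767 and 562 in normoxia (-1.63), and its 2 other probe sets had a median of -1.40 in hypoxia. It was lower under the knockdown label at both oxygen levels. *ZNF395* read 119.7 and 51.4 in hypoxia (-1.01) and 21.5 and 14.9 in normoxia (-0.28). Below the 2-fold line, *INSIG2* (-0.80), the transcriptional repressor *BHLHE40* (-0.73), the mTORC1 inhibitor *DDIT4* (-0.70), *ANKRD37* (-0.69) and the endoplasmic reticulum oxidase *ERO1A* (-0.66) were the next most negative. In normoxia *INSIG2* (-0.53), *BHLHE40* (-1.06) and *DDIT4* (-0.93) were lower under the knockdown label too. The 25 targets had a median of -0.13 in normoxia, with 15 below 0 and 3 at least 2-fold lower there. *ANKRD37* read 1556 and 958 in hypoxia and 118 and 122 in normoxia, and *ERO1A* 4260 and 2697 in hypoxia and 1105 and 978 in normoxia, so that both hypoxic arrays stood above both normoxic arrays.

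Secreted HIF targets had a median of -0.14, with 9 of 13 below 0 and none past 2-fold. *ADM*, the vasodilator peptide adrenomedullin, read 9897 and 5268 in hypoxia (-0.91) and 397 and 436 in normoxia (0.13). Its level in hypoxic HIF2α-KD cells was lower than in hypoxic control cells but far above both normoxic arrays. *VEGFA*, the angiogenic growth factor, read 3752 and 2137 in hypoxia (-0.81) and 1447 and 535 in normoxia (-1.41). The control array was the higher at each oxygen level. *LOX*, a collagen cross-linking oxidase, read 999 and 668 in hypoxia (-0.57) and 520.3 and 452 in normoxia (-0.20). *EDN1*, endothelin, read 5834 and 5099.6 in hypoxia (-0.19), and *STC1*, stanniocalcin, 1985 and 1565 (-0.34). *ANGPTL4* (0.17) and *PDGFB* (0.16) lay above 0.

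**Figure D2:**
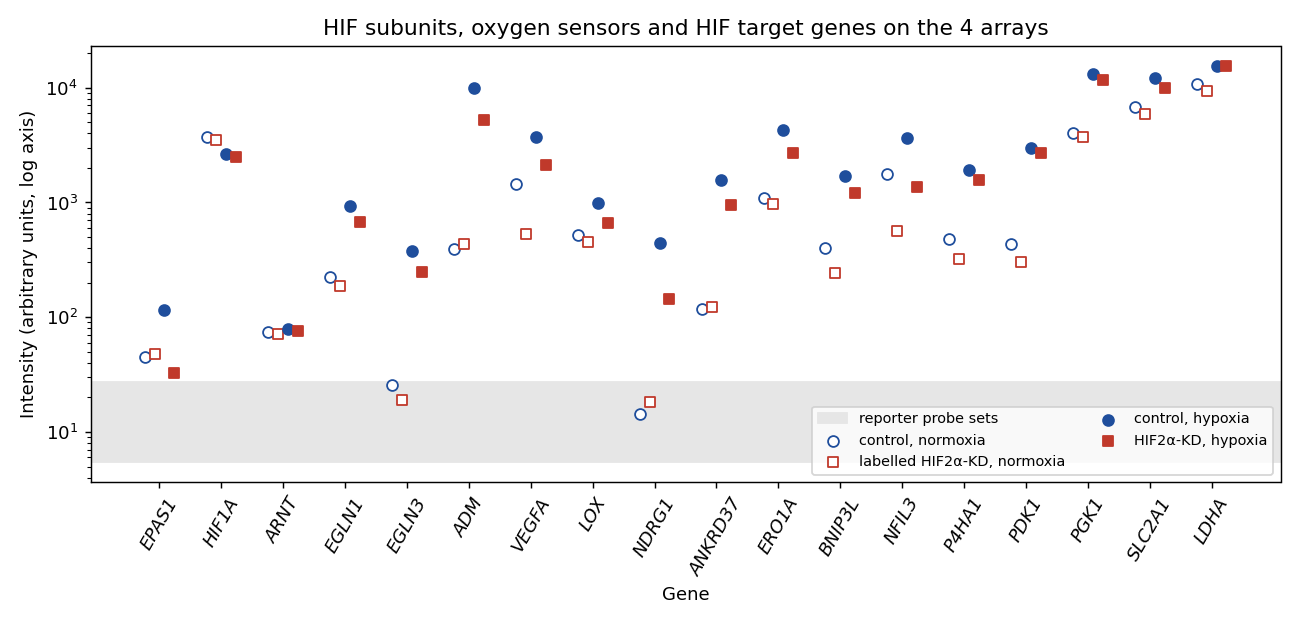
Intensity on a log axis of the HIF subunits, oxygen sensors and HIF target genes on the 4 arrays, with open symbols for normoxia, filled for hypoxia, blue circles for control and red squares for HIF2α-KD. The grey band runs from the lowest reporter median to the highest reporter 95th percentile. *EPAS1* stands high on the hypoxic control array alone, *NDRG1*, *ADM* and *ANKRD37* lie on the hypoxic HIF2α-KD array between the hypoxic control and the normoxic arrays, and *LDHA* and *PGK1* nearly coincide on the hypoxic arrays.

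Glycolytic targets, by contrast, clustered near 0. The median of 24 genes was -0.047, 18 were below 0, and none differed by 2-fold. The median turned positive under quantile normalization. *LDHA*, lactate dehydrogenase, read 15537 and 15385 in hypoxia (-0.014) and 10806 and 9269 in normoxia (-0.22), and *PGK1*, phosphoglycerate kinase, 13129.7 and 11611 in hypoxia (-0.18) and 4012 and 3688 in normoxia (-0.12). For both, the hypoxic arrays were higher than the normoxic arrays and the HIF2α-KD array stood almost level with its control. *SLC2A1*, the glucose transporter GLUT1, read 12219.6 and 9974 in hypoxia (-0.29) and *PFKFB3*, which makes the activator of phosphofructokinase, 6706 and 4979.8 (-0.43). The most negative were *PKM* (195 and 110.5, -0.74) and *PFKP* (-0.51). The most positive were *HK1* (0.49), whose sign depended on the probe set, *PDK3* (0.40) and *ENO2* (0.39). Whether the glycolytic and the intracellular list differ from each other was not tested.

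Among the oxygen sensors, *EGLN3* read 379.5 and 247 in hypoxia (-0.59) and 25.5 and 19.1 in normoxia (-0.24) and *EGLN1* 928 and 674 in hypoxia (-0.45) and 224 and 188 in normoxia (-0.23). Both are themselves induced by HIF, and each was lower on the hypoxic HIF2α-KD array than on its control and higher than on either normoxic array. *CITED2*, which competes with HIFα for the coactivator CBP, read 208 and 117 (-0.75), and the gene of that coactivator, *CREBBP*, 654 and 412 (-0.65). *HIF3A* was dim, at 19.8 and 33.0. Of 12 genes listed for their links to HIF2α, 9 lay below 0, the median was -0.091 and none passed 2-fold. The list is not limited to targets of HIF2α alone, and some members, such as *EFNA1* and *LOXL2*, stand on the other lists of HIF targets too. In this group the transferrin receptor gene *TFRC* read 252 and 172 in hypoxia (-0.51) and 31.9 and 40.1 in normoxia (0.23), cyclin D1 (*CCND1*) 1478 and 1225 in hypoxia (-0.27) and 674 and 1460 in normoxia (1.10), and *SOD2*, mitochondrial superoxide dismutase, 1295 and 1026 (-0.33). For *TFRC* both hypoxic arrays were above the normoxic arrays, while for *CCND1* the normoxic control array alone stood low. The most positive member was the iron gene *CYBRD1*, at dim values of 17.6 and 29.9 (0.45). The iron genes *SLC11A2* (-0.016) and *SLC40A1* (-0.061) lay near 0. The erythropoietin gene *EPO* was at the reporters' level on both hypoxic arrays. Collagen-modifying hydroxylases and oxidases had 9 of 11 genes below 0 and a median of -0.21. *P4HA1* read 1920.3 and 1564 in hypoxia (-0.29) and 476 and 319 in normoxia (-0.56) and *PLOD3* 396 and 260.4 (-0.57).

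Genes of the ATF4 pathway were lower in hypoxic HIF2α-KD cells. ATF4 is the transcription factor of the integrated stress response, which reacts to amino acid shortage and to unfolded protein. Of 24 such genes, 23 lay below 0, the median was -0.41, 4 were at least 2-fold lower and 9 at least 1.5-fold lower. The 1 gene above 0 was at 0.63, past 1.5-fold. Over the other ways of processing, the median ran from -0.49 to -0.32. *PPP1R15A*, which encodes the GADD34 subunit that reverses eIF2α phosphorylation, read 2432 and 621 in hypoxia (-1.94) and 922 and 459.7 in normoxia (-0.98), and its 4 other probe sets gave -1.11 to -1.65 in hypoxia. Those at -1.65 and -1.13 passed the filter through the hypoxic control array alone, on which they were high. The others gave -1.27 and -1.11. The hypoxic control array was the highest of the 4 for this gene, and the HIF2α-KD array lay below even the normoxic control. *DDIT3*, encoding the stress factor CHOP, read 579.7 and 185 in hypoxia (-1.57) and 184 and 131 in normoxia (-0.44). *CHAC1*, a glutathione-degrading enzyme, read 115 and 40.2 in hypoxia (-1.22) and 68.6 and 10.1 in normoxia (-1.70), and *FGF21*, a stress-induced hormone, 1041 and 465 in hypoxia (-1.14) and 368 and 53.8 in normoxia (-2.46). *ATF3* (-0.90), the cystine transporter *SLC7A11* (-0.85) and the serine synthesis enzyme *PSPH* (-0.71) lay short of 2-fold. *VEGFA* and *DDIT4* stand on this list and on those of HIF targets. In the normoxic pair, which shares no array with the hypoxic one, the list had a median of -0.70, with *FGF21* at -2.46 and *CHAC1* at -1.70. Endoplasmic reticulum chaperones and degradation genes had a median of -0.041, 16 of 28 below 0 and none past 2-fold. The most negative was *HERPUD1*, at 5379 and 3211 (-0.74), and the most positive member was at 0.85. The sign of the median of this list turned under quantile normalization.

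Immediate-early genes, which cells switch on within minutes of growth factor or stress signals, were lower as well: 20 of 23 lay below 0, with a median of -0.42, 4 at least 2-fold lower and 6 at least 1.5-fold lower. *JUN*, a subunit of the AP-1 factor, read 2422 and 1062 in hypoxia (-1.18) and 838 and 621 in normoxia (-0.42). *KLF4*, a zinc finger factor of epithelia, read 230.4 and 99.3 in hypoxia (-1.10) and 54.3 and 52.3 in normoxia (-0.041), but its other probe set differed by only -0.12. The phosphatase genes *DUSP1* and *DUSP5*, which switch off MAP kinases, read 1114 and 519 (-1.08) and 415 and 192 (-1.05) in hypoxia. The other probe sets of *DUSP1* disagreed, at 0.21 and -0.92. For each of these 4 genes the hypoxic control array was the highest. *FOS* (-0.58) and *MYC* (-0.56) lay short of 2-fold. *ANKRD1* read 2755 and 1511 in hypoxia (-0.86) and 517 and 1939.6 in normoxia (1.88), lower in hypoxia and higher in normoxia. Of 12 circadian clock genes 10 lay below 0 (median -0.36), and the most negative, *NFIL3*, *BHLHE40*, the dim *NR1D2* (34.0 and 15.6, -0.66) and *BHLHE41* (-0.58), are all but *NR1D2* on the list of HIF targets too. The core clock genes *ARNTL* (-0.46) and *CLOCK* (-0.35) were below 0 and *PER1* (0.20) above.

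**Figure D3:**
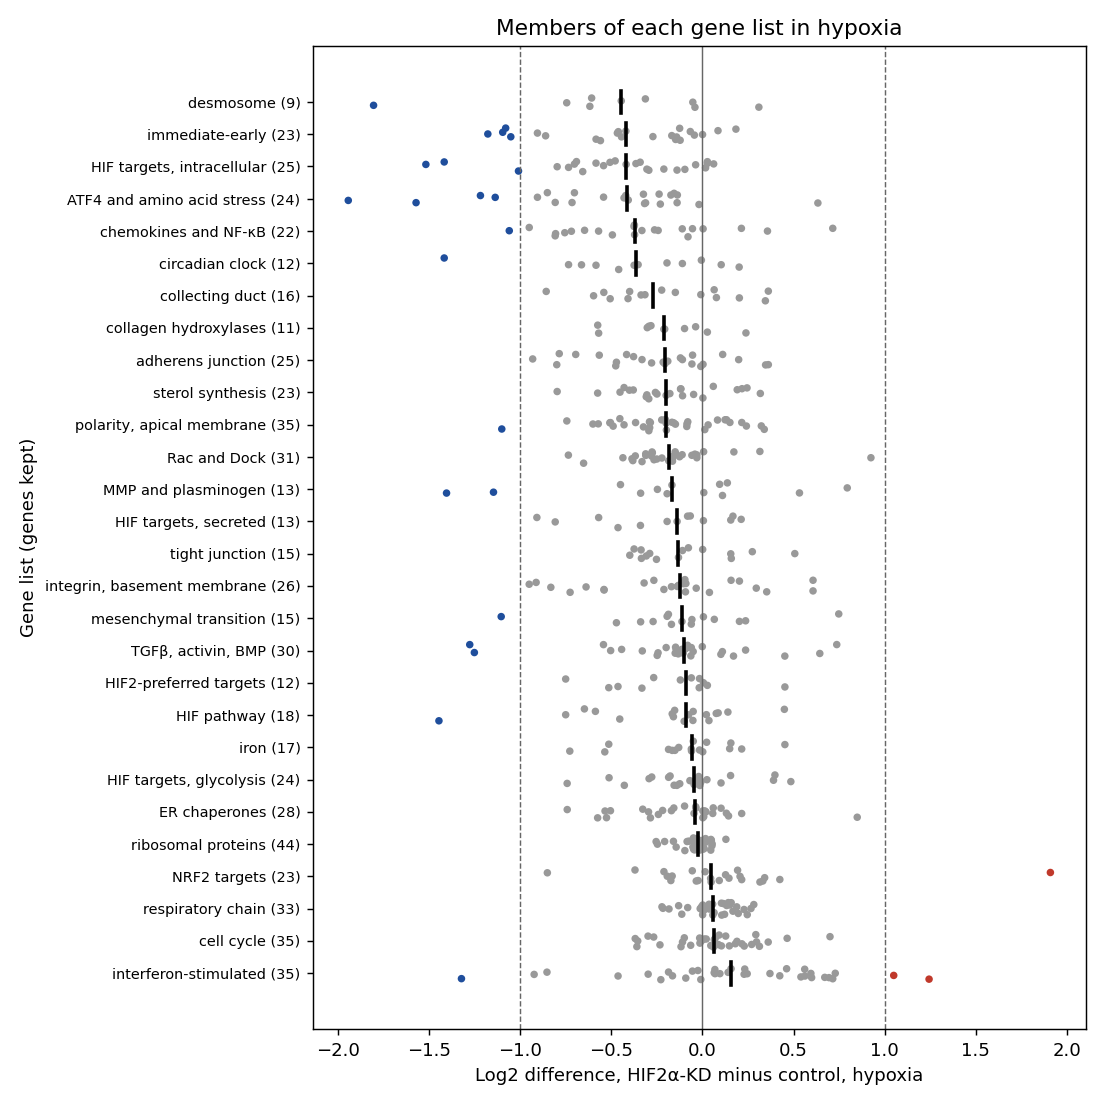
Log2 difference between the hypoxic HIF2α-KD and control arrays for each kept member of 28 gene lists (points, spread vertically at random), with the list median as a black bar, blue points at least 2-fold lower and red points at least 2-fold higher. Desmosome, immediate-early, intracellular HIF target and ATF4 lists have the lowest medians, and the interferon-stimulated list has the highest.

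Several of the largest single differences lay outside these groups. *YTHDC2*, an RNA helicase that binds methylated adenosine, had the largest: it read 758 and 106 in hypoxia (-2.66) and 551 and 469.7 in normoxia (-0.22), and the hypoxic HIF2α-KD array stood apart from the other 3. It has no further probe set to compare. *TRPV6*, an epithelial calcium channel, read 73.1 and 4.85 in hypoxia (-2.10) and 3.10 and 2.69 in normoxia (-0.031), and *SPATC1* 72.2 and 7.18 in hypoxia (-1.93) and 19.96 and 5.24 in normoxia (-0.76). For both, only the hypoxic control array stood clear of the reporters. *JMJD1C*, of the jumonji histone demethylase family, read 486 and 147 in hypoxia (-1.62) and 343 and 108 in normoxia (-1.53), with its other probe sets at a median of -0.70 in hypoxia. *CDCP1*, a membrane substrate of Src, read 482 and 157 in hypoxia (-1.53) and 237 and 98.0 in normoxia (-1.15), and *FNIP2*, a partner of folliculin, 161 and 45.8 in hypoxia (-1.52) and 90.8 and 33.1 in normoxia (-1.12). In these 3 genes the control array was the higher at both oxygen levels. *MRAS*, a RAS-family GTPase, read 363 and 136 in hypoxia (-1.32) and 365 and 169.7 in normoxia (-1.04), with the control arrays level with each other. *ATAD1*, an ATPase that clears mislocalised proteins from mitochondria, read 327 and 118 (-1.36, other probe set -0.53). *CYP4A37*, of the fatty acid hydroxylase family CYP4A, read 820.1 and 309.6 (-1.36), while its other probe set gave -0.18. The size thus depended on the probe set for both. *COL16A1*, a minor fibril-associated collagen, read 59.6 and 12.4 (-1.41) but its other probe set went the opposite way, at 0.45. *FNDC5* (-1.34) and *PRDM10* (-1.33) rest on dim values, 39.0 and 5.71 and 33.7 and 3.81.

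**Figure D4:**
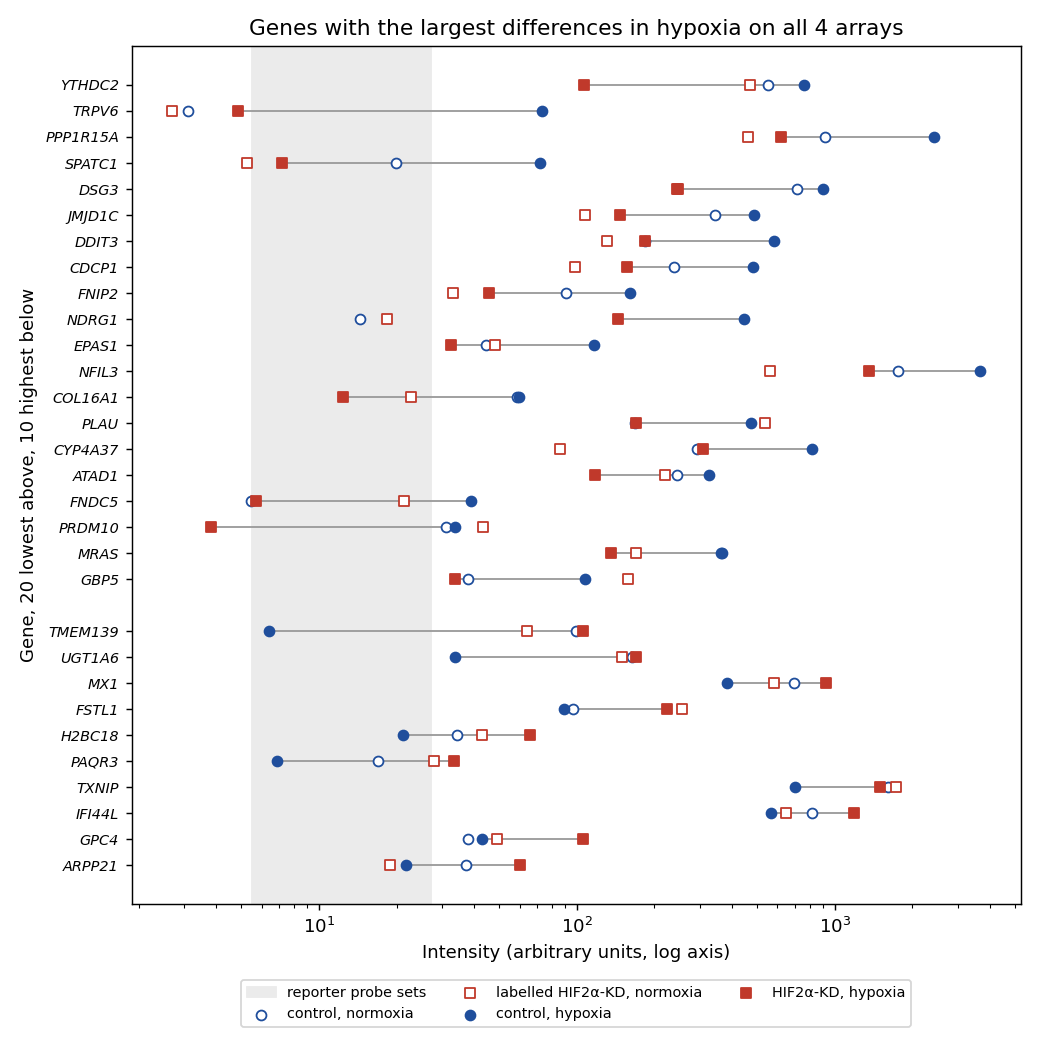
Intensity on a log axis of the 20 genes with the most negative and the 10 with the most positive difference in hypoxia, on all 4 arrays, with grey lines joining the hypoxic arrays and a grey band for the reporter probe sets. *YTHDC2* is low on the hypoxic HIF2α-KD array alone, and *TMEM139* and *UGT1A6* are low on the hypoxic control array alone.

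Further genes among the 86, named after their values were seen, included regulators with known roles. *ERRFI1*, a feedback inhibitor of the EGF receptor, was the brightest, at 10685 and 5111 in hypoxia (-1.06) and 2469 and 1277 in normoxia (-0.94), and its other probe set gave -1.86. The Krüppel-like factor *KLF5* read 1762 and 717 in hypoxia (-1.28) and 1018 and 569.8 in normoxia (-0.82) and *FOXO3*, a forkhead factor of stress resistance, 609 and 279 in hypoxia (-1.08) and 290 and 143 in normoxia (-0.94). Both were lower on the knockdown-labelled arrays at each oxygen level. *TIPARP*, an enzyme induced by the aryl hydrocarbon receptor, read 1065 and 451 in hypoxia (-1.21) and 412 and 613 in normoxia (0.55). *MYOF*, a membrane repair protein, read 1442 and 631 in hypoxia (-1.17) and 532 and 522 in normoxia (-0.027), *SLC5A3*, the inositol transporter, 466 and 195 in hypoxia (-1.19) and 82.3 and 102 in normoxia (0.26), and *MTHFD2*, a mitochondrial folate enzyme, 2231 and 1049.5 in hypoxia (-1.08) and 1503 and 538 in normoxia (-1.45). The hypoxic control array was the highest of the 4 for every gene of this paragraph named so far. The class II histocompatibility genes *DLA-DRA* (2902 and 1439, -1.004) and *DLA-DQA1* (821 and 402, -1.002) were also among the 86. They belong to a multigene family whose probes may share targets.

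Among cell junction genes, those of desmosomes lay furthest below 0. The lists of adherens and tight junctions had medians near that of 10 reference genes, -0.17, of which 8 lay below 0. Desmosomes are the spot junctions that anchor keratin filaments, and 8 of their 9 genes lay below 0 with a median of -0.45, which ran from -0.61 to -0.050 over the other ways of processing. *DSG3*, a desmosomal cadherin, read 900.2 and 246 in hypoxia (-1.80) and 714 and 244 in normoxia (-1.49), and the HIF2α-KD arrays were level with each other and both below their controls. *PKP3*, a plakophilin, read 381 and 221 (-0.74), *PPL*, periplakin, 2325 and 1510.3 (-0.62), *DSC2*, desmocollin, 1593 and 1040.1 (-0.61), and *DSP*, desmoplakin, 156 and 111 (-0.45). *PKP2* was above 0 (0.31). Adherens junction genes had 20 of 25 members below 0 and a median of -0.21, with none at 2-fold. *IQGAP1*, a scaffold that binds Rac and Cdc42, read 804 and 414 in hypoxia (-0.93) and 237 and 228 in normoxia (-0.051), with the hypoxic control array the highest, and the actin cross-linkers *ACTN1* and *ACTN4* differed by -0.79 and -0.80. *CDH1*, E-cadherin, read 119 and 81.4 in hypoxia (-0.47) and 15.4 and 18.9 in normoxia (0.15), and *CTNNB1*, β-catenin, 9068 and 7808 in hypoxia (-0.22) and 8014 and 8502 in normoxia (0.085). *CTNNB1* was bright on all arrays, while *CDH1* stood clear of the reporters in hypoxia alone. *JUP*, plakoglobin, which serves both junction types, read 2750 and 1693 (-0.69). For tight junctions 10 of 15 lay below 0 (median -0.13). *TJP1*, encoding ZO-1, read 2984 and 2408 in hypoxia (-0.31) and 2267 and 2125 in normoxia (-0.093), *OCLN*, occludin, 835 and 659 (-0.33), and *CLDN7* 4877 and 3758 (-0.37).

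Polarity and apical membrane genes had 25 of 35 members below 0 and a median of -0.20. *DPP4*, an apical peptidase, was the only one at 2-fold: it read 403 and 179 in hypoxia (-1.10) and 53.7 and 124 in normoxia (1.01), so that the direction was opposite in the 2 pairs. *LLGL2*, a basolateral polarity protein, read 197 and 111 (-0.74), *PRKCI*, atypical protein kinase C, 1325 and 869 (-0.60), and *PARD3*, the Par3 scaffold, 600.2 and 399 (-0.57). The apical sialoprotein gene *PODXL* read 169 and 179.8 in hypoxia (0.083) and 121 and 145 in normoxia (0.23). Of 31 genes of Rac and Dock signalling, 27 lay below 0 (median -0.18), none of them at 2-fold. The medians of the polarity list and of this list were near that of the 10 reference genes, -0.17, of which 8 lay below 0. Of the 4 Rac and Dock genes above 0, *DOCK8*, an exchange factor for Cdc42, had the largest value, at 184 and 363 in hypoxia (0.92) and 228 and 214 in normoxia (-0.090). This rests on 1 probe set, since the others of *DOCK8* lay below the filter, at 1.22 to 15.7. *DOCK1*, an exchange factor for Rac, read 745 and 469 (-0.65) and *TRIO*, also an exchange factor, 736 and 436 (-0.74). *RAC1* itself read 9451 and 8435 (-0.16) and *PAK1*, its effector kinase, 274 and 275 (0.0068). *DOCK4*, the exchange factor the study followed up, was at the reporters' level on both hypoxic arrays, so no direction can be given for it.

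Genes of epithelial to mesenchymal transition had a median of -0.11, with 10 of 15 below 0. Averaging probe sets turned the sign of that median. *SNAI2*, the repressor Slug, was at least 2-fold lower in hypoxia. It read 2739 and 1266 in hypoxia (-1.10) and 542 and 1218 in normoxia (1.15). The hypoxic control array stood above the other 3, and the knockdown-labelled arrays had nearly the same level at both oxygen levels. *VIM*, vimentin, read 17351 and 17419 in hypoxia (0.0056) and 17049 and 17961 in normoxia (0.075), *ZEB1* 34.4 and 28.3 (-0.19, with its other kept probe set at 0.56), and *ACTA2*, smooth muscle actin, 20.3 and 45.0 in hypoxia (0.75) and 42.3 and 173 in normoxia (1.69). *SNAI1* and *ZEB2* were at the reporters' level on both hypoxic arrays.

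Interferon-stimulated genes leaned the other way. Of 35, 23 lay above 0 against 44.3% of all genes, the median was 0.16 with a range of 0.13 to 0.25 over the other ways of processing, 2 genes were past 2-fold upward and 8 past 1.5-fold. *MX1*, an antiviral GTPase, read 381 and 925 in hypoxia (1.24) and 699 and 581 in normoxia (-0.26), and *IFI44L* 567 and 1189.7 in hypoxia (1.05) and 817 and 648 in normoxia (-0.33), with a median of 1.09 over its 2 other probe sets. For both, the hypoxic control array was the lowest of the 4 and the hypoxic HIF2α-KD array the highest. *ISG15*, a ubiquitin-like modifier, read 3036 and 4923 in hypoxia (0.69) and 4344 and 3177 in normoxia (-0.45), and *USP18*, which removes it, 331 and 559.5 in hypoxia (0.73) and 469 and 341 in normoxia (-0.44). Both were lower under the knockdown label in normoxia. The guanylate-binding proteins were exceptions: *GBP5* read 108 and 33.6 in hypoxia (-1.32) and 37.9 and 158 in normoxia (1.69) and *GBP6* 74.0 and 31.5 (-0.92). *ISG20*, an exonuclease, read 469 and 253 (-0.85).

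Few other genes were higher in hypoxic HIF2α-KD cells. *TMEM139* read 6.39 and 105 in hypoxia (2.44) and 98.8 and 64.1 in normoxia (-0.52), and *UGT1A6*, a glucuronidating enzyme, 33.6 and 170.2 in hypoxia (1.91) and 164 and 150 in normoxia (-0.12), with its other probe set at 0.53 in hypoxia. In both, the hypoxic control array stood low, for *TMEM139* at the reporters' level, and the other 3 were near each other. The value for *TMEM139* ran from 1.27 to 3.85 with the pseudocount. *TXNIP*, an arrestin-like inhibitor of thioredoxin and glucose uptake, read 705 and 1502 in hypoxia (1.07) and 1611 and 1729.7 in normoxia (0.10), with its other probe set at 0.79 in hypoxia, and showed the same arrangement. *UGT1A6* belongs to a family whose members share exons, so its signal may not be of that gene alone. *FSTL1*, a secreted glycoprotein, read 89.0 and 224 in hypoxia (1.19) and 96.8 and 255 in normoxia (1.26). It was the only one of the 10 that was at least 2-fold higher in the normoxic pair as well. *GPC4*, a glypican, read 42.9 and 106 (1.05), and the histone gene *H2BC18* (1.14), *PAQR3* (1.11) and *ARPP21* (1.02) rest on a control value at the reporters' level. Just short of 2-fold, *FILIP1L* read 248 and 505 in hypoxia (0.98) and 88.7 and 351 in normoxia (1.81). *CCDC65* (0.98) and *DCDC2* (0.96, and -1.04 in normoxia) are both linked to cilia, but the control value of *CCDC65*, 9.14, was at the reporters' level. Along with these, the microtubule linker *CLIP3* (0.98), *SH3D19* (0.93), *C1QL3* (0.93), the interferon-induced chaperone *RTP4* (0.93) and the tyrosine kinase *BTK* (0.92) complete the 20 most positive differences. Of 23 genes of the NRF2 antioxidant response, 14 lay above 0 (median 0.048), with *UGT1A6* alone past 2-fold.

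Several genes of inflammation, activin signalling and matrix turnover were lower in HIF2α-KD cells in hypoxia and higher under the knockdown label in normoxia. The difference between the pairs was not tested. Chemokines and NF-κB targets had 18 of 22 members below 0 and a median of -0.37 in hypoxia, against 0.41 in normoxia. In hypoxia 7 of them were at least 1.5-fold lower and 1, *CXCL10* (37.5 and 71.8, 0.72), at least 1.5-fold higher. *NFKBIA*, the inhibitor IκBα and an NF-κB target, read 1555 and 738 in hypoxia (-1.06) and 667 and 1608 in normoxia (1.25). *PTGS2*, cyclooxygenase 2, read 11974 and 6191 in hypoxia (-0.95) and 2003 and 6408 in normoxia (1.67), and *CCL2*, a monocyte chemokine, 2269.6 and 1292 in hypoxia (-0.81) and 982 and 7958 in normoxia (3.00). For each, the normoxic control array was the lowest of the 4, and the array labelled HIF2α-KD was the higher of the normoxic pair and the lower of the hypoxic pair. *INHBA*, the activin A subunit, read 4923 and 2059.6 in hypoxia (-1.25) and 947 and 3763 in normoxia (1.97), and its antagonist follistatin, *FST*, 1552 and 632 in hypoxia (-1.28) and 266 and 471 in normoxia (0.79). For both, the sign in hypoxia was opposite to that in normoxia. The 30 TGFβ, activin and BMP genes, both included, had a median of -0.10, with the BMP target *ID3* at 1335 and 2235 (0.74) and *BAMBI*, a pseudoreceptor, at 244 and 233 (-0.063). *PLAU*, urokinase, read 476 and 169.8 in hypoxia (-1.40) and 168 and 535 in normoxia (1.58). *PLAU* was lower by about as much in hypoxia as it was higher in normoxia. *TIMP3*, a metalloproteinase inhibitor, read 5778 and 2602 in hypoxia (-1.15) and 3085 and 4425 in normoxia (0.52), with -1.11 to -1.35 over 3 other probe sets in hypoxia. *MMP13* read 1181 and 860.4 in hypoxia (-0.45) and 526 and 4263 in normoxia (2.98). The list of metalloproteinase and plasminogen genes as a whole was divided in hypoxia, with 7 of 13 below 0, 6 above and a median of -0.17. Its most positive member was *PLAT*, at dim values of 9.85 and 28.8 (0.79). Among 26 integrin and basement membrane genes 19 lay below 0 (median -0.12, and 0.32 in normoxia). The collagen receptor *ITGA2* (-0.95) and the laminin chain *LAMA3* (-0.83) were lower, while the collagen IV chains *COL4A1* and *COL4A2* were both at 0.61.

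In other gene groups few members stood apart. None of 33 respiratory chain genes reached 1.5-fold, 25 lay above 0 and the median was 0.057. Ribosomal protein genes had a median of -0.024 over 44, which turned positive under quantile normalization and cyclic loess. Of 35 cell cycle genes 22 lay above 0 (median 0.065). Cyclin E1 (*CCNE1*) was highest, at 318 and 526 (0.70), and the inhibitor p21 (*CDKN1A*) read 3211 and 2484 (-0.37). No cell cycle gene was at 2-fold. Sterol synthesis genes had 17 of 23 members below 0 and a median of -0.20 in hypoxia, against -0.53 in normoxia. *INSIG1*, the sterol sensor's partner, differed by -0.43 and -1.54. Iron genes had a median of -0.059, with its sign turned under quantile normalization, and *CP*, ceruloplasmin, read 1764 and 1059 (-0.73). The reference gene *TBP* read 540.3 and 533 in hypoxia (-0.020) and 584 and 566 in normoxia (-0.044), and 10 reference genes had a median of -0.17.

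The cell type was checked against marker genes. Epithelial keratins *KRT8* and *KRT18* and the adhesion molecule *EPCAM* were bright, with *EPCAM* at 11679 and 11609.6 in hypoxia and 11719 and 10064 in normoxia. Of 30 collecting duct and epithelial markers, 15 on the hypoxic control and 14 on the HIF2α-KD array exceeded the reporters' 95th percentile, with summed intensities of 35350 and 33974. The water channel *AQP2* and the kidney factors *PAX2* and *PAX8* were at the reporters' level on both. Fibroblast markers passed in 2 and 2 of 10 (summed 261 and 205), leukocyte markers in 5 and 6 of 12 (299 and 317) and endothelial markers in 4 and 4 of 12 (1597 and 1628, most of it *FLT1*, at 1213 and 1199). Their part in the differences was not tested. Median intensity over all probe sets was 28.2 to 29.1 on the 4 arrays. The reporters' median was 5.48 on the hypoxic control array and 7.24 on the hypoxic HIF2α-KD array, the lowest and the highest of the 4. The part of this in dim genes was not tested. Some probe sets did not follow their gene, with *GAPDH* and *ACTB* near the reporters' level, so a dim reading does not show that a gene is silent.

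The normoxic pair, which shares no array with the hypoxic pair, gives another reading of the knockdown label. Of the 86 lower genes, 59 (68.6%) were below 0 in normoxia too, beside 56.4% of all genes, and 14 (16.3%) were at least 2-fold lower there, beside 0.544%. *DSG3*, *JMJD1C*, *NFIL3*, *FGF21* and *CHAC1* were among these 14. In the opposite direction, 8 of the 86 (9.30%) were at least 2-fold higher in normoxia, beside 0.615%. Pearson's r between the differences of the 2 pairs was 0.17 across the 9749 genes, as a description over genes that share arrays within each pair. Because the 86 and the 10 were taken by their hypoxic difference, which uses the hypoxic control array, their position relative to normoxia of control cells is partly set by that choice and was given above as levels only.

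**Figure D5:**
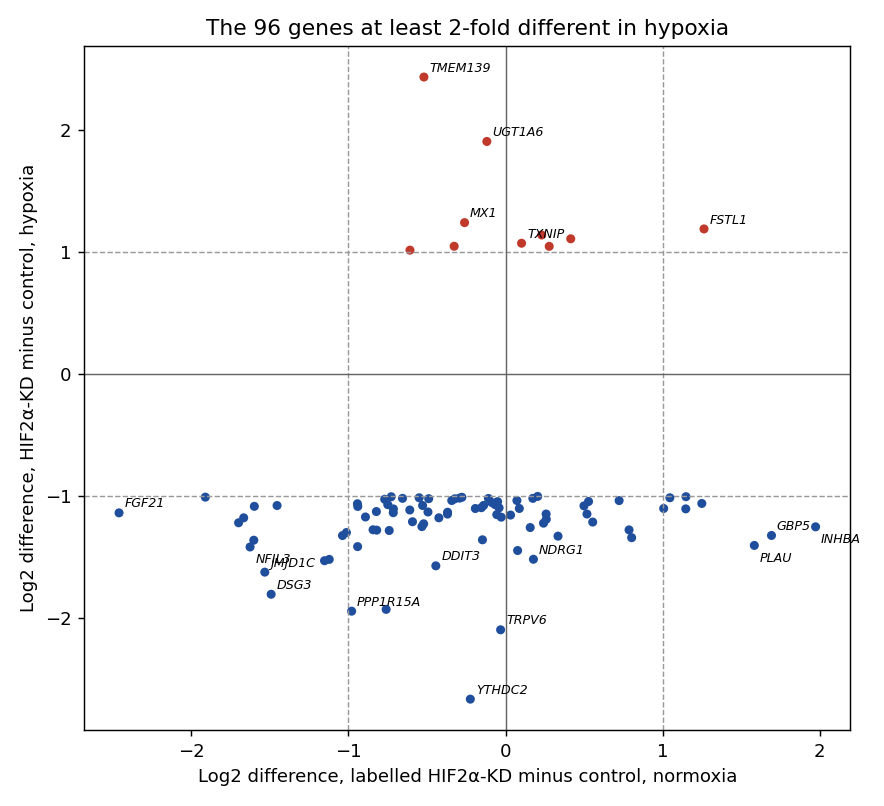
Log2 difference under the knockdown label in hypoxia (y axis, the difference that chose the genes) against that in normoxia (x axis, other arrays) for the 86 lower genes in blue and the 10 higher genes in red, with dashed lines at 2-fold. *FGF21*, *NFIL3*, *JMJD1C* and *DSG3* lie at lower left, while *INHBA*, *GBP5* and *PLAU* lie at lower right.

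Other probe sets of the same genes, which did not choose them, gave a check on the same RNA. Of the 86 lower genes, 38 had another probe set above the filter, and in 35 of these (92.1%) the median of those probe sets was also below 0, beside 57.0% of the 4910 genes with such a probe set. The sizes were smaller, with a median of -0.53, and 7 reached 2-fold: by more than a single probe set the low values hold for *PPP1R15A*, *NFIL3*, *TIMP3*, *ERRFI1*, *CHAC1*, *MTHFD2* and *ANKRD28*. *COL16A1*, *PDLIM5* and *BAIAP2* went the opposite way. The filter goes by the brightest array, so some probe sets that were dim on the other arrays entered through the hypoxic control array alone. Among them were 1 of *CREBRF* (34.2 and 13.1, -0.79) and those of *PPP1R15A* at -1.65 and -1.13. Dim probe sets that reached the filter on no array were left out, among them those of *FNIP2* at 0.20 and 0.22. The share in the same direction is thus partly set by the filter. All 5 of the 10 higher genes with another probe set were above 0 there, beside 43.0%, and *IFI44L* alone reached 2-fold. Such probe sets share the RNA sample and the array, so they bear on the probe and not on the cells.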

How the data were processed

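Expression was read on Affymetrix canine arrays, 1 for each of 4 conditions. The deposited table holds a linear intensity for every probe set on each array. The RNA was labelled with a 3' kit. None of the sources used here gives the summarization of probes, the background correction, the scaling or the software. A floor lies at 1.

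Samples were grouped by the genotype and oxygen condition in their labels. Of 42924 probe sets, 29254 carry 1 gene symbol in the platform annotation and only these were named. A probe set was kept if its brightest array was at or above 28.75, the median over all values, and the brightest stood for its gene, which left 9749 genes. Differences are of log2(intensity + 16), since the floor makes ratios of dim values unstable, and they understate changes of dim genes. With 1 array a side, genes were counted at 2-fold with no test. Precision is limited by the number of arrays, and intensities carry no read depth.

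The genes named are those named in the study, the 20 most extreme differences in either direction that carry a symbol other than LOC, and up to 6 members with the largest difference and 2 of the brightest in each described list. Markers, genes at the 2-fold line and other genes outside this rule, among them *ERO1A*, *MYC* and *ISG15*, were chosen after their values were seen. The members and the 33 lists were chosen with earlier results of these data known, from general knowledge of each pathway. Genes whose higher hypoxic intensity lay below the 95th percentile of 63 reporter probe sets are given no direction. Alternatives were quantile normalization, median centring and cyclic loess, 3 other filters, 2 other uses of probe sets, and pseudocounts of 1 and 64. Counting was tested on simulated data. Python 3.11.15, numpy 2.4.6, pandas 2.3.3, matplotlib 3.10.9, R 4.3.3 and limma 3.58.1 were used.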

Additional observations from a re-analysis of the deposited data

Results flagged for a closer look

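In 8 genes the difference between the arrays labelled HIF2α-KD and control was at least 2-fold in each pair and of opposite direction, lower in hypoxia and higher in normoxia. With 1 array per condition, the difference between the pairs was not tested. On the log2 scale the hypoxic difference minus the normoxic difference was -3.22 for *INHBA*, the activin A subunit, -3.01 for *GBP5*, a guanylate-binding protein, and -2.99 for *PLAU*, urokinase. It was -2.31 for *NFKBIA*, the NF-κB inhibitor, -2.25 for *SNAI2*, the repressor Slug, and -2.15 for *PLK2*, a polo-like kinase. It was -2.11 for *DPP4*, an apical peptidase, and -2.06 for *PTH*, whose hypoxic HIF2α-KD value of 23.3 lies at the reporters' level. No gene was at least 2-fold higher in hypoxia and 2-fold lower in normoxia. *DCDC2* fell just short of this, at 0.96 in hypoxia and -1.04 in normoxia. *EPAS1* was lower on the knockdown-labelled array in hypoxia (-1.45, on dim values from 1 probe set) and not in normoxia (0.077).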

How the results depend on the processing

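No paired analysis was possible because each condition has 1 array. Of the 95 genes besides *EPAS1* that differed 2-fold, *PDLIM5* alone turned its sign under the 10 alternatives, to 0.16 as the median of its probe sets, and in 157 of 902 recomputed values the size lay below 2-fold in the same direction. Leaving out the filter gave 17 higher genes, and a filter at the 75th percentile (175 in place of 28.75) gave 4 higher and 51 lower, with *EPAS1* not among the genes kept. Counting every probe set gave 21 higher and 148 lower. A pseudocount of 1 gave 74 higher and 153 lower, and a pseudocount of 64 gave 4 higher and 33 lower, with *EPAS1* at -0.90, short of 2-fold. *EPAS1* ran from -1.80 to -0.90 over all alternatives. The other scalings gave 11 to 13 higher and 62 to 82 lower. Of the 86 lower genes, 62 were counted under quantile normalization, 74 under cyclic loess and 59 when probe sets were averaged. Small list medians turned sign. The glycolysis, chaperone, ribosomal protein and iron lists were at 0.023, 0.013, 0.013 and 0.0050 under quantile normalization, ribosomal proteins at 0.014 under cyclic loess, and the mesenchymal and metalloproteinase lists at 0.00090 with probe sets averaged. The endothelial markers were at -0.0093 with a filter on the mean. Dim genes carry the weakest values, and no alternative supplies the spread between cultures.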
